A study of Mus musculus with 180 samples.

Results

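Cytokine receptor genes were described across single cells of 4 haematopoietic populations. The set held 10 genes, namely Csf1r, Csf2ra, Csf2rb, Csf2rb2, Csf3r, Il3ra, Il6st, Ifngr1, Il1rl1 and Il2rg, chosen by name and all present among the 14825 genes of the deposited table. The CD11b+CD48+SK population comprised 47 donor-derived Sca1+c-Kit+ cells that carried CD48 and CD11b (Mac-1), collected from primary recipients at Week 8 post-transplantation. The transplanted donor cells were multipotent progenitors (MPP) of Mx1cre/Rosa LSL-Hoxb5-EGFP/+ mice, in which Hoxb5 is switched on by a Cre under the Mx1 promoter after injection of polyinosinic-polycytidylic acid (pIpC), and the recipients were lethally irradiated CD45.1+ C57BL/6 mice that also received helper cells. The 41 WT-MPP cells and 36 bone marrow haematopoietic stem cells (BM HSC) came from Hoxb5LSL/+ mice of 8 weeks. The 56 fetal liver haematopoietic stem cells (FL HSC) came from Hoxb5LSL/+ embryos at Day14.5 and were sorted as Mac1+CD150+ cells of the Lin-Sca1+c-Kit+ compartment, although the source field of their labels says bone marrow. All populations were of the C57BL/6 strain, and all came from mice with the Hoxb5 cassette, whose stop sequence Cre removes. Transplantation into irradiated hosts, pIpC, Cre and Hoxb5 thus went together in the CD11b+CD48+SK cells and cannot be told apart, since no transplanted MPP without Hoxb5 was sequenced among these cells. The sort differed as well and cannot be told apart from these. MPP in the paper are gated as negative for CD11b and CD48, for both of which the CD11b+CD48+SK cells were positive. Since the labels tie no cell to an animal, a population stands for 1 sample. Populations were therefore compared without a test, and every SD below is the spread over cells.

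Cytokine receptors sit in the plasma membrane and bind secreted proteins that steer the survival, division and maturation of blood cells. Most have no enzyme of their own: a ligand-binding alpha chain joins a signalling chain, JAK kinases bound to the signalling chain phosphorylate it, and STAT transcription factors carry the signal to the nucleus. The receptors for interleukin-3 (IL-3), for granulocyte-macrophage colony-stimulating factor (GM-CSF) and for granulocyte colony-stimulating factor (G-CSF) are best known for myeloid growth, whereas the common gamma chain serves lymphoid cytokines such as IL-7 and IL-15.

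Levels are given in TPM, a unit per transcript length in which different genes may be compared and to which every cell sums equally, and the depth per cell is unknown. In its place stands the number of genes that reached a TPM of 1, with a median of 4514 in the CD11b+CD48+SK cells, 3844 in the WT-MPP, 4441.5 in the BM HSC and 5206.5 in the FL HSC. No cell was identical to another. Hoxb5 itself was present, here meaning a TPM of 1 or more, in 91.5% of CD11b+CD48+SK cells, 17.1% of the WT-MPP, 22.2% of the BM HSC and 57.1% of the FL HSC. Of the genes behind the sort, the CD150 gene Slamf1 was found in 63.9% of the BM HSC and 55.4% of the FL HSC but in 7.32% of the WT-MPP and 6.38% of the CD11b+CD48+SK cells. The CD11b gene Itgam was found in 36.2% of CD11b+CD48+SK cells and in 2.78% to 16.1% of cells of the other populations.

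The class I cytokine receptors share a motif near the membrane, tryptophan-serine-any residue-tryptophan-serine (WSXWS), and its codons are shown for the members in which the search found them. In the reference coding sequences (GENCODE vM21, genome build GRCm38), the motif was found once in 5 of the 10 members and not in Csf1r, Csf2ra, Il3ra, Ifngr1 or Il1rl1. Of these, Csf1r and Il1rl1 belong to the immunoglobulin-domain receptors and Ifngr1 to the class II receptors; for Csf2ra and Il3ra the search says only that these exact codons are not in the reference. Each line below gives 33 bases of coding sequence, 5′ to 3′ on the coding strand, with the 15 motif bases in capitals.
Csf2rb: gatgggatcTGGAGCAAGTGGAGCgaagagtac
Csf2rb2: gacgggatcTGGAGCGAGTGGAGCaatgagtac
Csf3r: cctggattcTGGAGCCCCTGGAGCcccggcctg
Il6st: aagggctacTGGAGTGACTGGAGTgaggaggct
Il2rg: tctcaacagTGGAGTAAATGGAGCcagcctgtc
The motif lay in exon 10 of Csf2rb (chr15:78345516-78345530, plus strand), exon 10 of Csf2rb2 (chr15:78287916-78287930, minus strand), exon 6 of Csf3r (chr4:126034530-126034544, plus strand), exon 6 of Il6st (chr13:112490597-112490611, plus strand) and exon 5 of Il2rg (chrX:101266215-101266229, minus strand).

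Csf2rb, the signalling chain shared by the IL-3, GM-CSF and IL-5 receptors, and Csf2rb2, its neighbour on chromosome 15 that serves IL-3 alone, are near copies, and their sequences bear on how far their values can be separated. Over 2628 aligned coding bases 95.2% were identical, the longest identical run was 242 bases, and 18.9% of the 50-base windows of the Csf2rb transcript also occurred in the Csf2rb2 transcript. The lines below show 90 bases of exon 4 from each, with the 16 positions that differ in capitals (Csf2rb at chr15:78338897-78338986, plus strand; Csf2rb2 at chr15:78294345-78294434, minus strand; build GRCm38).
Csf2rb: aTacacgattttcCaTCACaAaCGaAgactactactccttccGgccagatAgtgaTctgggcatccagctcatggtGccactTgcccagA
Csf2rb2: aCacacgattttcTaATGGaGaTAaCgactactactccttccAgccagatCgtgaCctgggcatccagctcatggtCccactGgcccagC
Reads from identical stretches could have been given to either gene, so the 2 genes are reported singly and together, and their separate values are uncertain.

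Il3ra, the alpha chain that binds IL-3, had the largest difference of the members between the CD11b+CD48+SK cells and the WT-MPP over all cells. It was present in 68.1% of CD11b+CD48+SK cells (32 of 47 cells, 95% exact Clopper-Pearson interval 52.9 to 80.9%, which like all intervals here covers the counting of cells only). In the WT-MPP it was present in 9.76% of cells (2.72 to 23.1%), in the BM HSC in 13.9% (4.67 to 29.5%) and in the FL HSC in 48.2% (34.7 to 62.0%). The intervals of the CD11b+CD48+SK cells and the FL HSC overlapped, and both lay above those of the WT-MPP and the BM HSC.

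The level of Il3ra ran from 0 to 184 TPM in the CD11b+CD48+SK cells with a median of 6.73, and from 0 to 30.1 TPM in the WT-MPP with a median of 0. In the BM HSC it ran from 0 to 107 TPM with a median of 0, and in the FL HSC from 0 to 158 TPM with a median of 0.253. All 4 populations therefore held cells at 0, and the ranges overlapped. The mean log2(TPM+1) was 2.87 ± 2.44 (SD, n = 47 cells) in the CD11b+CD48+SK cells, 1.96 ± 2.51 (SD, n = 56 cells) in the FL HSC, 0.67 ± 1.73 (SD, n = 36 cells) in the BM HSC and 0.38 ± 1.18 (SD, n = 41 cells) in the WT-MPP. The difference between the CD11b+CD48+SK cells and the WT-MPP, at 2.49, exceeded the SD of both, whereas neighbours in that order differed by less than the SD of either. Il3ra lies at chr14:14346275-14356011 on the plus strand (GRCm38) in 12 exons, and Gm48860, an antisense gene that overlaps it, is not listed in the table; whether the authors' estimates used strand is not given, so reads of both cannot be told apart. Many Il3ra values were low, with 11 of the 32 positive CD11b+CD48+SK cells and 13 of the 27 positive FL HSC between a TPM of 1 and 10. Among 24 CD11b+CD48+SK cells and 17 WT-MPP whose number of genes lay in the range common to all populations (3974 to 4751 genes), Il3ra was present in 62.5% (40.6 to 81.2%) and 17.6% (3.80 to 43.4%), and these intervals overlapped. In these cells the difference of Ifngr1, at -1.73, was slightly larger in size than that of Il3ra, at 1.69.

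**Figure D1:**
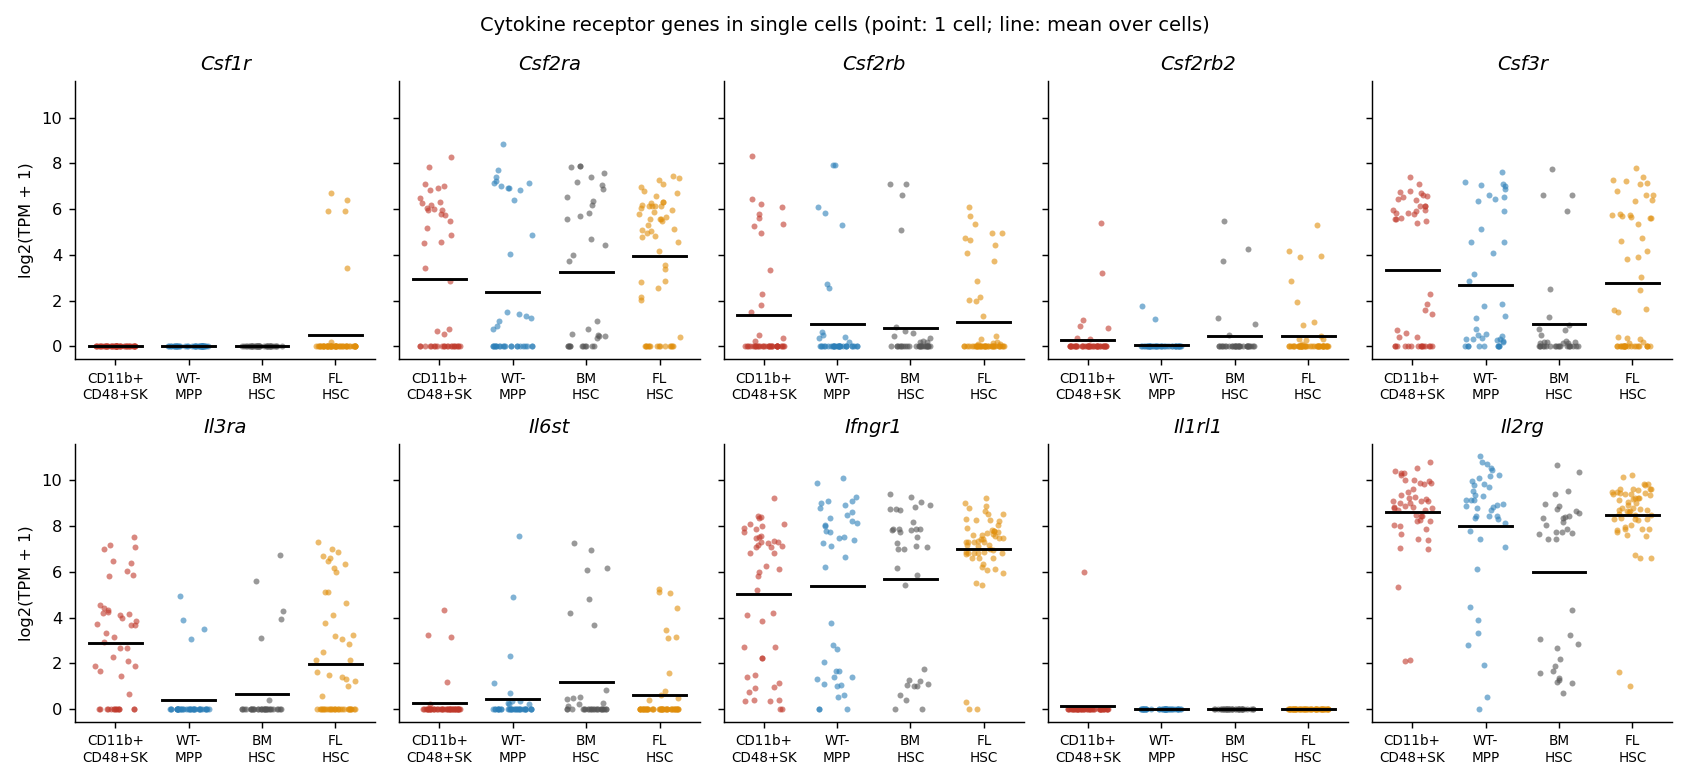
Levels of the 10 receptor genes in single cells, as log2(TPM + 1) on the y axis, by population on the x axis; each point is 1 cell and each black line is the mean over the cells of a population. Il3ra was spread from 0 to 184 TPM in the CD11b+CD48+SK cells and was at 0 in most WT-MPP, while Il2rg was high in nearly all cells of 3 populations and divided between high and low in the BM HSC.

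Csf2ra (chr19:61223957-61228429, minus strand), the alpha chain that binds GM-CSF, was present in a large share of every population. The share was 73.2% in the FL HSC (59.7 to 84.2%), 52.8% in the BM HSC (35.5 to 69.6%), 48.9% in the CD11b+CD48+SK cells (34.1 to 63.9%) and 43.9% in the WT-MPP (28.5 to 60.3%). Neighbouring intervals in that order overlapped. The level ran from 0 to 309 TPM in the CD11b+CD48+SK cells (median 0.701), from 0 to 463 TPM in the WT-MPP (median 0), from 0 to 239 TPM in the BM HSC (median 6.65) and from 0 to 171 TPM in the FL HSC (median 32.7). The median was highest in the FL HSC, although the mean TPM there, 43.1, lay within the range of the other populations, 39.9 in the CD11b+CD48+SK cells, 46.1 in the WT-MPP and 53.5 in the BM HSC. The mean log2(TPM+1) of Csf2ra was 2.93 ± 3.07 (SD) in the CD11b+CD48+SK cells and 3.94 ± 2.69 in the FL HSC, a difference of -1.02 that was smaller than either SD.

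Csf2rb and Csf2rb2, singly or together, were found in fewer cells than Csf2ra in every population, and in fewer than Il3ra in the CD11b+CD48+SK cells and the FL HSC. Counted together they were found in more cells than Il3ra in the WT-MPP and the BM HSC, as was Csf2rb alone in the WT-MPP. Csf2rb2 alone in both populations, and Csf2rb alone in the BM HSC, were found in fewer cells than Il3ra. Csf2rb was present in 27.7% of CD11b+CD48+SK cells, 26.8% of the FL HSC, 17.1% of the WT-MPP and 11.1% of the BM HSC, with a median of 0 TPM in each population and a highest value of 315 TPM in CD11b+CD48+SK cells, 66.5 TPM in the FL HSC, 246 TPM in the WT-MPP and 135 TPM in the BM HSC. Csf2rb2 was present in 4.88% of the WT-MPP, 6.38% of the CD11b+CD48+SK cells, 11.1% of the BM HSC and 12.5% of the FL HSC, and its highest value was 44.2 TPM. Counted together, one or the other was present in 29.8% of CD11b+CD48+SK cells (17.3 to 44.9%), 17.1% of the WT-MPP (7.15 to 32.1%), 19.4% of the BM HSC (8.19 to 36.02%) and 35.7% of the FL HSC (23.4 to 49.6%). All 4 of these intervals overlapped.

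Alpha and signalling chains were then counted in the same cells. Of the 32 CD11b+CD48+SK cells with Il3ra, 9 also held Csf2rb or Csf2rb2 (28.1%, 13.7 to 46.7%), as did 5 of the 15 without Il3ra (33.3%, 11.8 to 61.6%). In the FL HSC the shares were 33.3% of the 27 cells with Il3ra and 37.9% of the 29 without. In the WT-MPP they were 25% of the 4 cells with Il3ra and 16.2% of the 37 without, and in the BM HSC 40% of 5 cells and 16.1% of 31 cells. The share was thus lower among cells with the IL-3 alpha chain in the first 2 populations and higher in the other two, and the intervals overlapped in each. Among the 23 CD11b+CD48+SK cells with Csf2ra, 4 held Csf2rb or Csf2rb2 (17.4%, 4.95 to 38.8%), against 10 of the 24 without Csf2ra (41.7%, 22.1 to 63.4%), and the intervals overlapped. In the FL HSC these shares were 31.7% of 41 cells and 46.7% of 15 cells, and in the BM HSC 26.3% of 19 cells and 11.8% of 17 cells. A complete pair of transcripts, Il3ra with a signalling chain, was found in 19.1% of the CD11b+CD48+SK cells and 16.1% of the FL HSC, against 2.44% of the WT-MPP and 5.56% of the BM HSC. The intervals of these pair shares overlapped, with 0.0617 to 12.9% for the lowest, the WT-MPP, and 9.15 to 33.3% for the highest. Il3ra and Csf2ra were found together in 34.04% of the CD11b+CD48+SK cells and 35.7% of the FL HSC. With and without Il3ra, Csf2ra was present in 50% and 46.7% of the former and 74.1% and 72.4% of the latter. It was less frequent with Il3ra in the WT-MPP and the BM HSC, and all intervals overlapped. Such joint shares rise with the single shares and are read as no result about pairing.

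Csf3r, the receptor for G-CSF, which pairs with itself and drives the making of neutrophils, was present in a smaller share of the BM HSC than of the other populations. It was present in 59.6% of CD11b+CD48+SK cells (44.3 to 73.6%), 51.8% of the FL HSC (38.03 to 65.3%), 51.2% of the WT-MPP (35.1 to 67.1%) and 16.7% of the BM HSC (6.37 to 32.8%). Over all cells at this TPM, only the interval of the BM HSC lay apart from those of the other 3. In the common range of genes per cell, Csf3r was present in 21.4% of 14 BM HSC (4.66 to 50.8%). That interval overlapped those of the CD11b+CD48+SK cells (36.6 to 77.9%), the WT-MPP (44.04 to 89.7%) and the FL HSC (23.04 to 76.96%). At a TPM of 10 or more, the interval of the BM HSC (3.11 to 26.1%) overlapped that of the WT-MPP (22.1 to 53.1%) only. The level ran from 0 to 169 TPM in the CD11b+CD48+SK cells (median 41.7), from 0 to 196 TPM in the WT-MPP (median 1.35), from 0 to 215 TPM in the BM HSC (median 0) and from 0 to 223 TPM in the FL HSC (median 1.93). High single cells were thus found in every population, and the differences lay in how many cells were high. The mean log2(TPM+1) was 3.36 ± 2.99 (SD) in the CD11b+CD48+SK cells, 2.77 ± 2.95 in the FL HSC, 2.67 ± 2.88 in the WT-MPP and 0.97 ± 2.13 in the BM HSC.

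Csf1r, the receptor tyrosine kinase for macrophage colony-stimulating factor, was found in the FL HSC alone among these cells. It was present in 5 of 56 FL HSC (8.93%, 2.96 to 19.6%), at 9.68, 59.2, 60.1, 83.9 and 102 TPM. It was at 0 in all 47 CD11b+CD48+SK cells (a share of up to 6.38% remains possible), in all 41 WT-MPP (up to 7.32%) and in all 36 BM HSC (up to 8.33%), so these limits reach to near the share seen in the FL HSC. The gene on the opposite strand that overlaps Csf1r, Hmgxb3, was at 0 TPM in all 5 cells. Of the 5 cells, 3 also held Csf3r and 3 held Csf2ra, and all 5 held Il2rg and Ifngr1. None held Mpo, a granule peroxidase of neutrophil and monocyte precursors, at a TPM of 1 or more, but only 19.6% of all FL HSC did. Other genes of myeloid cells were found in some of the 5, Itgam at 18.1 and 62.8 TPM and Irf8 at 80.7 and 93.7 TPM. Among all FL HSC, Itgam was present in 16.1%, after a sort for its protein, and Irf8 in 42.9%. Cebpa, Ctsg and Mcpt8 were at 0 in all 5, as in every FL HSC. Cpa3 and Ms4a2 were at 0 in all 5 as well, and each was present in 1.79% of all FL HSC. Gfi1 lay between 73.1 and 607 TPM in all 5, and was present in 85.7% of all FL HSC.

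**Figure D2:**
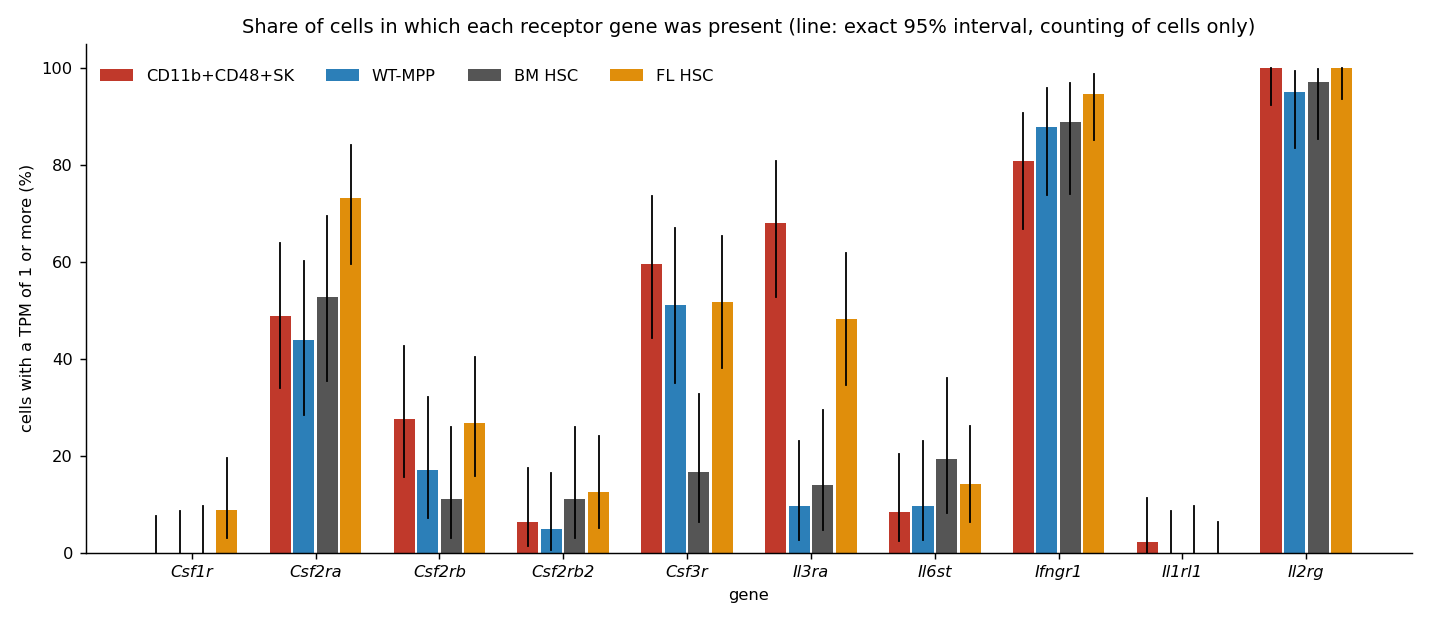
Share of cells, in % on the y axis, in which each of the 10 receptor genes on the x axis had a TPM of 1 or more, with bars for the 4 populations and lines for the exact 95% intervals. Il3ra stood at 68.1% in the CD11b+CD48+SK cells and 48.2% in the FL HSC against 9.76% in the WT-MPP and 13.9% in the BM HSC, and Csf3r was lowest in the BM HSC at 16.7%.

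Il2rg (chrX:101264378-101268255, minus strand), the common gamma chain of the receptors for IL-2, IL-4, IL-7, IL-9, IL-15 and IL-21, was the most abundant member in every population. Its mean was 585 TPM in CD11b+CD48+SK cells, 603 TPM in the WT-MPP, 487 TPM in the FL HSC and 275 TPM in the BM HSC. The level ran from 3.36 to 1765 TPM in the CD11b+CD48+SK cells (median 474), from 0 to 2116 TPM in the WT-MPP (median 469), from 0.635 to 1641 TPM in the BM HSC (median 209) and from 1.02 to 1215 TPM in the FL HSC (median 434). Gm20489, a gene on the same strand that overlaps Il2rg, is not listed. BM HSC were divided: 12 of the 36 cells lay between a TPM of 1 and 10, against 2 of 47 CD11b+CD48+SK cells, 3 of 41 WT-MPP and 2 of 56 FL HSC. At a TPM of 10 or more, Il2rg was present in 63.9% of the BM HSC (46.2 to 79.2%) against 95.7% of CD11b+CD48+SK cells (85.5 to 99.5%), 96.4% of the FL HSC (87.7 to 99.6%) and 87.8% of the WT-MPP (73.8 to 95.9%). The mean log2(TPM+1) was 8.62 ± 1.75 (SD) in the CD11b+CD48+SK cells, 8.50 ± 1.63 in the FL HSC, 7.99 ± 2.83 in the WT-MPP and 6.01 ± 3.31 in the BM HSC.

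The ligand-specific partners of Il2rg differed in how often they were found beside it. Il7r, the IL-7 alpha chain of lymphoid progenitors, was present in 2 of 47 CD11b+CD48+SK cells (4.26%) and in none of 41 WT-MPP, 36 BM HSC and 56 FL HSC, which allows up to 7.32% of the WT-MPP, 8.33% of the BM HSC and 5.36% of the FL HSC. Il21r was present in 66.0%, 58.5%, 77.8% and 75% of the CD11b+CD48+SK cells, the WT-MPP, the BM HSC and the FL HSC, and Il15ra in 42.6%, 39.02%, 55.6% and 44.6%. Il4ra lay between 33.3% and 42.9%. Il9r was found in 12.5% of the FL HSC only, and Il2ra and Il2rb are not listed in the table. Il2rg was found together with Il21r in 66.0% of the CD11b+CD48+SK cells, with Il4ra in 42.6% and with Il7r in 4.26%. Because Il2rg was present in 100% of these cells, the joint shares equal the single shares of the partners. They are read as no result about pairing.

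Ifngr1 (chr10:19591949-19610229, plus strand), the ligand-binding chain of the interferon-gamma receptor, was the second most abundant member by mean TPM. It was present in 80.9% of CD11b+CD48+SK cells (66.7 to 90.9%), 87.8% of the WT-MPP (73.8 to 95.9%), 88.9% of the BM HSC (73.9 to 96.9%) and 94.6% of the FL HSC (85.1 to 98.9%). All intervals overlapped. The level ran from 0 to 595 TPM in the CD11b+CD48+SK cells (median 75.5), from 0 to 1084 TPM in the WT-MPP (median 153), from 0 to 677 TPM in the BM HSC (median 145) and from 0 to 607 TPM in the FL HSC (median 158). FL HSC were the most even, with no cell between a TPM of 1 and 10, whereas 7 CD11b+CD48+SK cells, 11 WT-MPP and 7 BM HSC lay there. At a TPM of 10 or more the share was 94.6% in the FL HSC against 66.0% in the CD11b+CD48+SK cells, 61.0% in the WT-MPP and 69.4% in the BM HSC. Ifngr2, the signalling partner, was present in 33.9% to 44.4% of cells of each population. Of the CD11b+CD48+SK cells, 31.6% of those with Ifngr1 held Ifngr2, against 44.4% of the 9 cells without. With and without Ifngr1, the shares were 41.7% and 40% in the WT-MPP and 43.75% and 50% in the BM HSC. In the FL HSC they were 35.8% and 0%, the latter of 3 cells. The intervals overlapped in each population.

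Il6st (gp130), the signalling chain shared by the IL-6 family, was rare in all populations. It was present in 19.4% of the BM HSC (8.19 to 36.02%), 14.3% of the FL HSC (6.38 to 26.2%), 9.76% of the WT-MPP (2.72 to 23.1%) and 8.51% of the CD11b+CD48+SK cells (2.37 to 20.4%), with overlapping intervals and a median of 0 TPM in each. Its highest value was 19.2 TPM in CD11b+CD48+SK cells, 187 TPM in the WT-MPP, 155 TPM in the BM HSC and 36.7 TPM in the FL HSC. Of its partners, Il11ra1, the IL-11 alpha chain, was present in 36.2% of CD11b+CD48+SK cells, 68.3% of the WT-MPP, 86.1% of the BM HSC and 92.9% of the FL HSC. All 7 BM HSC and all 8 FL HSC with Il6st held Il11ra1, while none of the 4 CD11b+CD48+SK cells with Il6st did. Among cells without Il6st, Il11ra1 was present in 82.8% of the BM HSC, 91.7% of the FL HSC and 39.5% of the CD11b+CD48+SK cells. In the WT-MPP the shares were 50% with Il6st and 70.3% without. The intervals with and without Il6st overlapped in each population, and these shares are read as no result about pairing. Il6ra, the IL-6 alpha chain, was present in 25.5%, 26.8%, 11.1% and 17.9% of the 4 populations in the same order, and it was found beside Il6st in 1 CD11b+CD48+SK cell.

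Il1rl1 (chr1:40429570-40465415, plus strand), the IL-33 receptor ST2 of mast cells, basophils and innate lymphoid cells, was present in a single cell. That CD11b+CD48+SK cell, at 63.5 TPM, held 7 of the 10 members, among them Il3ra at 88.8 TPM, Csf3r at 70.2 TPM and Csf2rb at 47.4 TPM. It had 6190 TPM of the mast cell protease Cpa3, 1175 TPM of Mpo and 1021 TPM of the neutrophil protease Ctsg, but 0 TPM of the basophil protease Mcpt8 and of Il1rap, the partner chain of ST2. In the other populations Il1rl1 was at 0 in all cells, where a count of 0 leaves room for up to 5.36% in the FL HSC, 7.32% in the WT-MPP and 8.33% in the BM HSC.

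The populations were next compared by the difference of the mean log2(TPM+1), with a difference of 1 or more in size taken as past the fold. Of the members, 8 passed the filter of presence in 10% of the cells of at least 1 population, as did 10856 genes, and Csf1r and Il1rl1 did not. Against the WT-MPP, 1 of the 10 members was higher by 1 or more in the CD11b+CD48+SK cells, Il3ra at 2.49, and none was lower, where 19% of all genes compared were higher and 5.01% lower. Csf2ra at 0.57, Csf3r at 0.69 and Il2rg at 0.63 lay within the fold, and Csf2ra and Il2rg changed sign under other settings. The difference of Il3ra was larger than that of 97.7% of the genes compared. Of the 8 members that passed the filter, 1 was thus higher, which is below that background, whereas with median-ratio scaling and a pseudocount of 10 the background was 9.79% and 6.95% and Il3ra was still past the fold. A share resting on 1 member is read as no result about the members.

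Against the BM HSC, 3 members were higher in CD11b+CD48+SK cells, Il2rg at 2.62, Csf3r at 2.39 and Il3ra at 2.20, and none was lower, where 13.4% of all genes were higher and 11.8% lower. With a pseudocount of 10, Il3ra fell inside the fold at 0.86. Il6st at -0.91 and Ifngr1 at -0.67 lay on the other side, within the fold. Against the FL HSC no member was higher and 2 were lower, Ifngr1 at -1.97 and Csf2ra at -1.02, where 4.02% of all genes were higher and 20.9% lower. Csf2ra fell inside the fold with median-ratio scaling at -0.81, a pseudocount of 10 at -0.40 and log2 of the mean TPM at -0.11, and Ifngr1 with log2 of the mean TPM at -0.69. Il3ra, at 0.91 above the FL HSC, lay just inside the fold and above 95.2% of the genes compared.

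FL HSC were higher than the BM HSC in 4 members, Il2rg at 2.49, Csf3r at 1.80, Ifngr1 at 1.304 and Il3ra at 1.29, and lower in none, where 25.6% of all genes were higher and 5.44% lower. WT-MPP were higher than the BM HSC in 2 members, Il2rg at 1.98 and Csf3r at 1.70, and lower in none, where 2.67% of all genes were higher and 14.49% lower. The 3 comparisons with the BM HSC share the same 36 cells, so that the recurrence of Il2rg and Csf3r among them is not independent.

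The median difference of all genes compared was 0.21 between CD11b+CD48+SK cells and the WT-MPP, -0.00103 against the BM HSC, -0.32 against the FL HSC, 0.31 between the FL HSC and the BM HSC and -0.22 between the WT-MPP and the BM HSC. After each cell was scaled by the median ratio of its genes to their mean over cells, these medians were -0.07, -0.16, -0.22, 0.05 and -0.08. The shares of genes higher and lower were then 9.79% and 12.2%, 8.77% and 15.99%, 4.54% and 16.3%, 15.4% and 10.05%, and 5.55% and 11.3%, in the same order. Under this scaling Il3ra stood 2.34 above the WT-MPP and 2.02 above the BM HSC in the CD11b+CD48+SK cells, Csf3r 2.21 and Il2rg 2.05 above the BM HSC, and the difference of Ifngr1 from the FL HSC was -1.68. Between CD11b+CD48+SK cells and the WT-MPP the difference of Il2rg turned to -0.39 and that of Ifngr1 moved to -1.16. Between the FL HSC and the BM HSC the difference of Ifngr1 moved to 0.54.

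**Figure D3:**
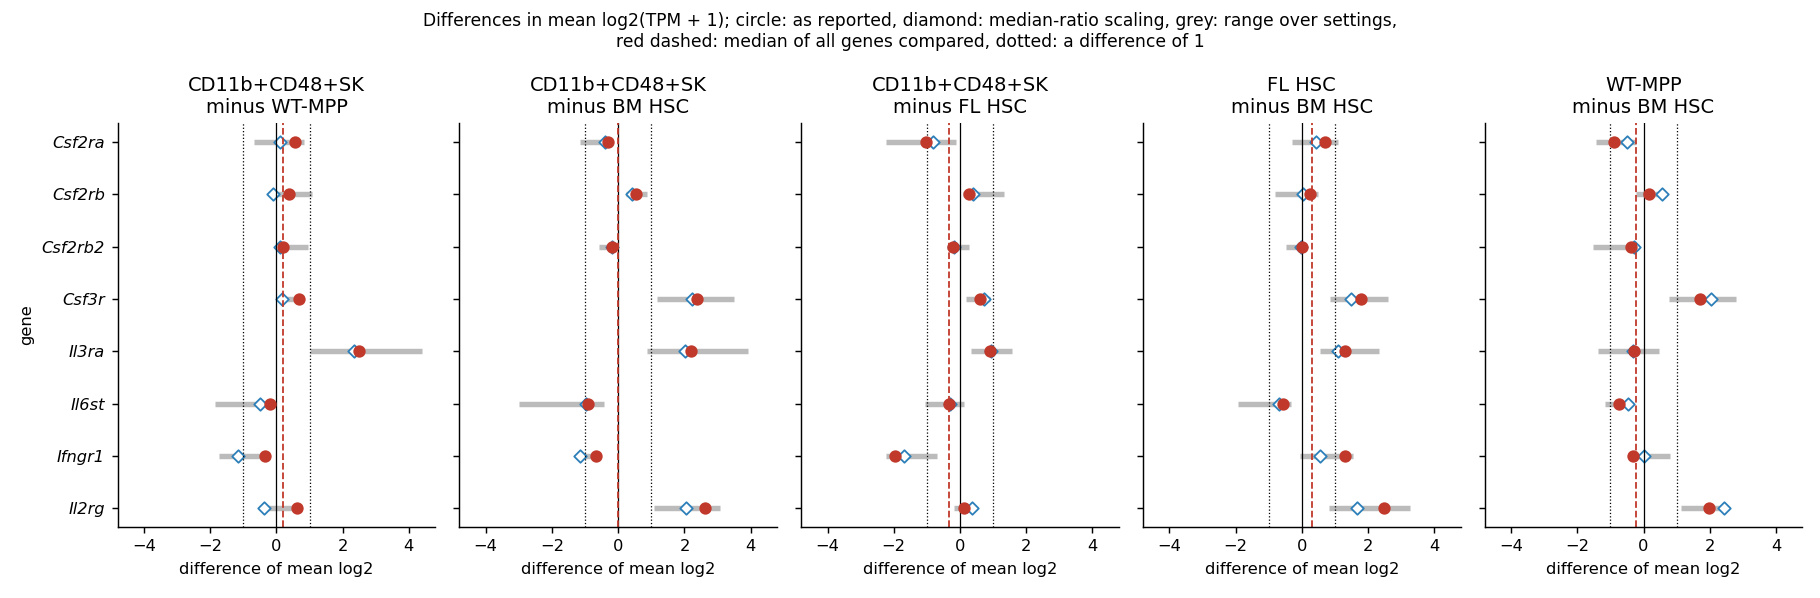
Differences in mean log2(TPM + 1) on the x axis for the 8 members that passed the filter on the y axis, in 5 comparisons; red circles are the values as reported, open diamonds those after median-ratio scaling, grey bars the range over settings, red dashed lines the median of all genes compared and dotted lines a difference of 1 in size. Il3ra at 2.49 was the one member past the fold between the CD11b+CD48+SK cells and the WT-MPP, and Csf3r and Il2rg stood above 1 in all 3 comparisons with the BM HSC.

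The number of members present in a cell was counted, without regard to level. It had a median of 4 in the CD11b+CD48+SK cells (range 1 to 7), 3 in the WT-MPP (1 to 5), 3 in the BM HSC (1 to 6) and 4 in the FL HSC (2 to 7). At least 4 members were present in 74.5% of CD11b+CD48+SK cells (59.7 to 86.1%) and 69.6% of the FL HSC (55.9 to 81.2%), against 39.02% of the WT-MPP (24.2 to 55.5%) and 36.1% of the BM HSC (20.8 to 53.8%). The intervals of the CD11b+CD48+SK cells and the FL HSC lay above those of the WT-MPP and the BM HSC. The number of genes found per cell also differed between the populations, as given above, and across cells of a population its Spearman's rho with the number of members was 0.12 in the CD11b+CD48+SK cells (n = 47), 0.31 in the WT-MPP (n = 41), 0.28 in the BM HSC (n = 36) and 0.29 in the FL HSC (n = 56). In the cells of the common range of genes the median was 4 in CD11b+CD48+SK cells, 4 in the WT-MPP, 3 in the BM HSC and 4 in the FL HSC.

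**Figure D4:**
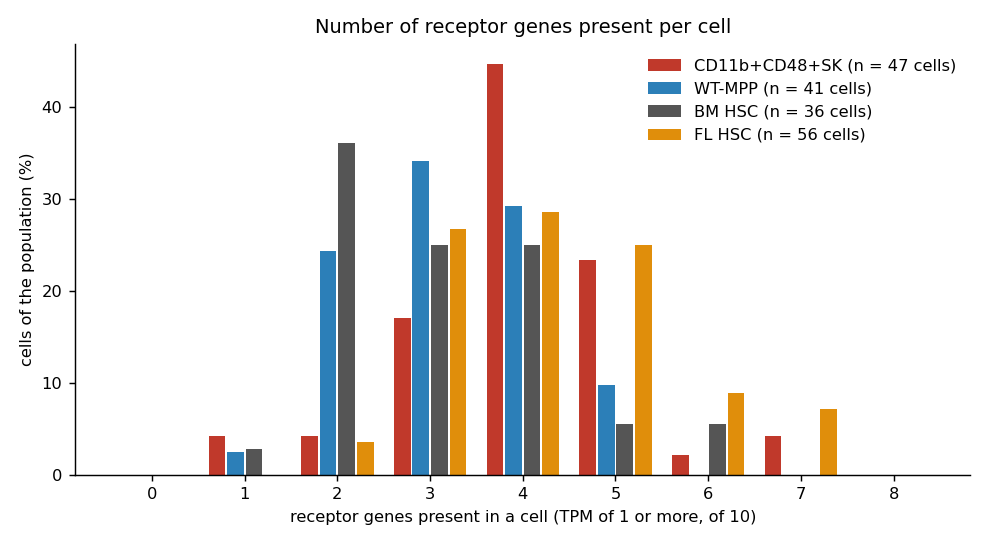
Percentage of the cells of each population (y axis) that held a given number of the 10 receptor genes at a TPM of 1 or more (x axis), for 47 CD11b+CD48+SK cells, 41 WT-MPP, 36 BM HSC and 56 FL HSC. The most frequent number was 4 in the CD11b+CD48+SK cells (44.7% of cells) and in the FL HSC (28.6%), 3 in the WT-MPP (34.1%) and 2 in the BM HSC (36.1%).

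The levels of different members were weakly related across cells. Among members present in at least 20% of the cells, Spearman's rho of TPM ran from -0.26 to 0.20 over 15 pairs in the CD11b+CD48+SK cells, from -0.20 to 0.37 over 6 pairs in the WT-MPP, from -0.07 to -0.01 over 3 pairs in the BM HSC and from -0.21 to 0.25 over 15 pairs in the FL HSC. The medians lay between -0.03 and 0.04. These cells share their sort and their amplification, and weak values among so many zeros are no finding. Csf2ra and Csf2rb gave the lowest value in the CD11b+CD48+SK cells, and Il3ra and Csf3r gave 0.01 there and 0.08 in the FL HSC.

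For each member present in at least 20% of the cells of a population, the genes most like it across cells were sought in the population where it was most often present. In the CD11b+CD48+SK cells (n = 47, 7233 genes compared) these were Ccdc22, Foxred1 and Phax for Il3ra, with rho from 0.50 to 0.55, where the 99th percentile of all genes was 0.38. For Csf3r they were Dnaja2, Morf4l1 and Dusp6 (0.51 to 0.54), for Csf2rb Ugt1a7c, Sptssa and Cstf3 (0.46 to 0.51) and for Il2rg Rnf167, Trim14 and Nfe2 (0.55 to 0.58). In the FL HSC (n = 56, 7963 genes compared) they were Ube2f, Mettl10 and Fgd2 for Csf2ra (0.41 to 0.45) and Ccar1, Ocrl and Peli1 for Ifngr1 (0.45 to 0.60). No member stood among the genes most like another member. The genes named were picked as the highest of all compared in these same cells. Their place above the 99th percentile was therefore fixed in advance, and their likeness to a member is no finding.

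The other receptors of haematopoietic cytokines were counted from a list of 24 listed genes. Of the 19 that passed the filter, 4 were higher and 2 lower by 1 or more in CD11b+CD48+SK cells than in the WT-MPP. Of all genes compared, 19% were higher and 5.01% lower. The number higher lay near that background and is read as no result about these receptors. Kit, the stem cell factor receptor used in the sort, was present in 70.2% of CD11b+CD48+SK cells and 85.4% to 86.1% of the others, with a mean of 28.5 TPM against 115 TPM in the WT-MPP, 144 TPM in the BM HSC and 55.9 TPM in the FL HSC, and its difference from the WT-MPP was -1.59. Flt3, the receptor tyrosine kinase CD135 by which MPP are gated, was present in 87.2% of CD11b+CD48+SK cells, 75.6% of the WT-MPP, 25% of the BM HSC and 53.6% of the FL HSC, and was 1.22 higher in CD11b+CD48+SK cells than in the WT-MPP. The others higher than in the WT-MPP were Tnfrsf1a at 2.93, Ifnar2 at 2.15 and Il10rb at 1.85, which encode a tumour necrosis factor receptor, a type I interferon receptor chain and a chain shared by IL-10 family receptors. Il1r1, the IL-1 receptor, was present in 34.04% of CD11b+CD48+SK cells, 9.76% of the WT-MPP and none of 36 BM HSC (up to 8.33%) and 56 FL HSC (up to 5.36%). Epor, the erythropoietin receptor, was present in 41.1% of the FL HSC, 19.4% of the BM HSC, 2.44% of the WT-MPP and 0 of 47 CD11b+CD48+SK cells (up to 6.38%).

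Of 10 listed partner chains, 9 passed the filter. In the CD11b+CD48+SK cells, 1 was lower than in the WT-MPP, Il11ra1 at -1.95, and 2 were lower than in the BM HSC, Il11ra1 at -4.22 and Il27ra at -1.24. None was higher in either comparison, and the median differences were -0.01 and -0.56. Of all genes compared, 5.01% were lower and 19% higher than in the WT-MPP, and 11.8% lower and 13.4% higher than in the BM HSC. Counts this small are read as no result about these chains. The ligands were mostly not listed, among them Csf2, Csf3, Il3, Il5, Il6, Ifng and Il33. Of 8 listed ligands 6 passed the filter, and none was past the fold between the CD11b+CD48+SK cells and the WT-MPP. Il15 was present in 46.8% to 58.9% of cells of each population, and Il4 in 44.6% of the FL HSC, 25% of the BM HSC, 9.76% of the WT-MPP and 2.13% of the CD11b+CD48+SK cells.

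All 11 JAK and STAT genes were listed and passed the filter. Between the CD11b+CD48+SK cells and the WT-MPP 1 was higher, Stat5b at 1.57, and none was lower, with a median difference of -0.30. Of all genes compared, 19% were higher and 5.01% lower. Stat5b, which acts below the IL-3 and GM-CSF receptors, was present in 72.3% of CD11b+CD48+SK cells (57.4 to 84.4%), 36.6% of the WT-MPP (22.1 to 53.1%), 52.8% of the BM HSC (35.5 to 69.6%) and 44.6% of the FL HSC (31.3 to 58.5%). Jak2, the kinase that the beta chains and Csf3r use, was present in 14.6% to 23.2% of cells, and Jak3, the partner of the common gamma chain, in 61.1% to 87.5%. Against the BM HSC, 3 were lower in CD11b+CD48+SK cells, Jak1 at -2.61, Stat4 at -1.49 and Stat2 at -1.37. None was higher, where 13.4% of all genes compared were higher and 11.8% lower.

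Feedback inhibitors and adaptors gave 19 of 21 genes past the filter. Cish, a STAT5 target that damps cytokine signalling, was present in 83.3% of the BM HSC (67.2 to 93.6%), 31.7% of the WT-MPP, 21.4% of the FL HSC and 6.38% of the CD11b+CD48+SK cells (1.34 to 17.5%), and Socs2, a further STAT5 target, in 63.9%, 24.4%, 46.4% and 4.26% in that order. In the CD11b+CD48+SK cells against the WT-MPP, Socs1 at 1.59 and Grb2 at 1.39 were higher and Cish at -1.34 was lower. Of all genes compared, 19% were higher and 5.01% lower. Against the BM HSC, 4 were lower, Cish at -5.48, Socs2 at -3.88, Pias1 at -2.17 and Shc1 at -1.20, and 2 were higher, Myd88 at 1.54 and Ptpn6 at 1.13. There 11.8% of all genes compared were lower and 13.4% higher. Cish and Socs2 were least often present in the CD11b+CD48+SK cells, in which Il3ra and Stat5b were most often present. Stat5a, the other STAT5 gene, was instead most often present in the BM HSC, at 72.2%. It was present in 66.0% of CD11b+CD48+SK cells, 55.4% of the FL HSC and 43.9% of the WT-MPP. A link between these genes was not tested.

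**Figure D5:**
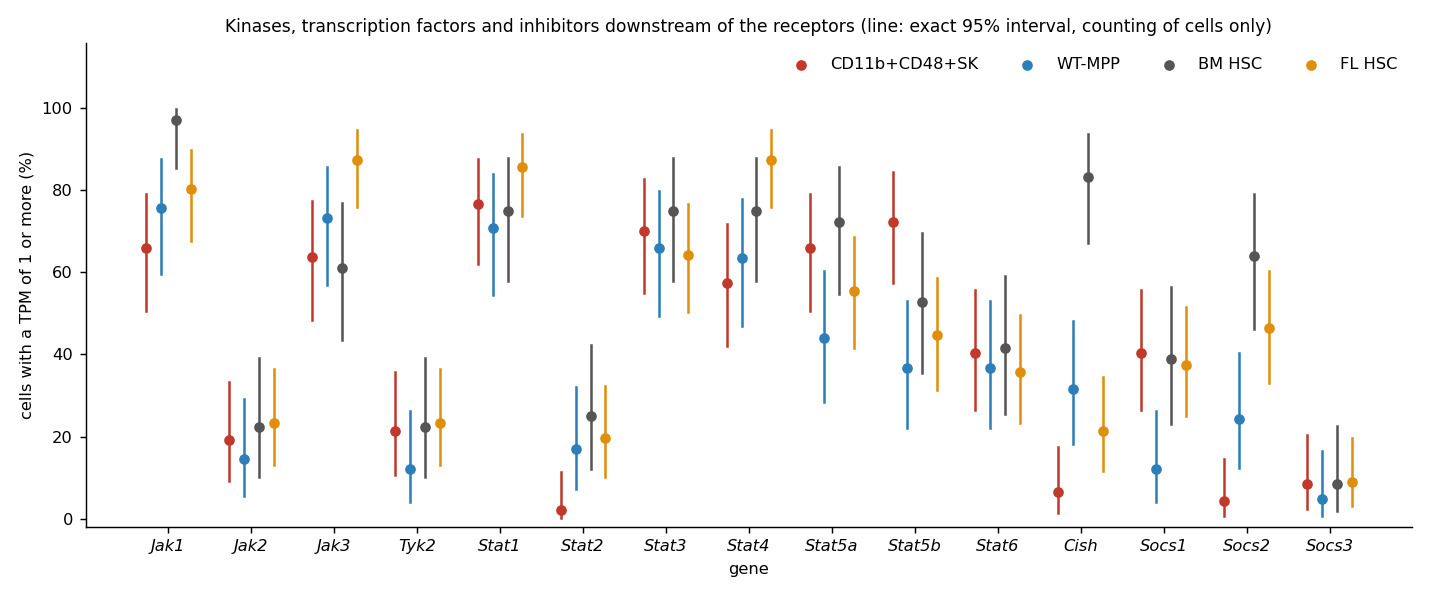
Share of cells with a TPM of 1 or more, in % on the y axis, for the JAK kinases, STAT factors and feedback inhibitors on the x axis; points are the 4 populations and lines the exact 95% intervals. Stat5b stood at 72.3% in the CD11b+CD48+SK cells against 36.6% in the WT-MPP, and Cish at 83.3% in the BM HSC against 6.38% in the CD11b+CD48+SK cells.

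Transcription factors known to act on myeloid receptor genes were described from 8 listed genes, of which 6 passed the filter; Spi1 is not listed. Cebpa, a regulator of Csf3r in granulocyte precursors, was present in 48.9% of CD11b+CD48+SK cells, 31.7% of the WT-MPP, 8.33% of the BM HSC and 0 of 56 FL HSC (up to 5.36%). Its part in the values of Csf3r was not tested. Cebpb was present in 68.1% to 96.4% of cells, Runx1 in 70.7% to 89.4%, and the difference of Gata2 between the CD11b+CD48+SK cells and the WT-MPP was -1.07. Gfi1, a repressor active in neutrophil and stem cells, was present in 85.7% of the FL HSC, 51.1% of the CD11b+CD48+SK cells, 24.4% of the WT-MPP and 13.9% of the BM HSC.

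Of the 8 members with an entry among the RefSeq promoters (GRCm38.p6, 250 bases before to 50 after the start), 3 held the letters GAGGAAG of the PU.1 type on either strand, Csf2ra and Csf2rb2 with 2 matches each and Csf3r with 1, where 13.6% of all 32851 promoters of that length held them. The 2 matches of Csf2ra overlapped, at -14 and -8 from the start. The C/EBP type letters TTGCNNAA (10.8% of promoters) were found in Il3ra and Il1rl1, the RUNX type letters TGTGGT (16.8%) in Il2rg and Il1rl1, and the GATA type letters AGATAA (11.2%) in Il1rl1. A match is a description of the letters and not of a bound site.

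Markers of mature or committed cells were also counted in each population. Of 12 neutrophil and monocyte markers, 6 were present in at least 20% of CD11b+CD48+SK cells and 2 in each other population. Their summed level ran from 559 to 8357 TPM in the CD11b+CD48+SK cells (median 2039), 18.2 to 4568 TPM in the WT-MPP (median 1523), 499 to 3915 TPM in the BM HSC (median 1252) and 190 to 4503 TPM in the FL HSC (median 1681). Mpo was present in 91.5% of CD11b+CD48+SK cells and 9.76% to 19.6% of the others, and Ctsg in 83.0% and at most 2.78%, while Elane and Cd14 were at 0 in every CD11b+CD48+SK cell. Prtn3 and Lyz2 of the same list did not set these cells apart in that way. Lyz2 was present in 100% of every population, and Prtn3 in 93.6% of CD11b+CD48+SK cells and 97.2% to 100% of the others. The mean log2(TPM+1) of Prtn3 was lowest in the CD11b+CD48+SK cells, at 6.67 against 7.92 in the WT-MPP, 7.43 in the BM HSC and 8.56 in the FL HSC. Of 7 listed mast cell and basophil markers, 2 were present in at least 20% of CD11b+CD48+SK cells, Cpa3 in 87.2% and Mcpt8 in 36.2%, with a summed level from 0 to 9248 TPM (median 144), and Cma1 and Mcpt4 were at 0. In the WT-MPP, the BM HSC and the FL HSC none was that frequent, and the highest sums were 304, 245 and 142 TPM. Ms4a2 was also most frequent in the CD11b+CD48+SK cells, at 10.6%, but the rest of this list was not. Hdc was present in 17.9% of the FL HSC against 8.51% of the CD11b+CD48+SK cells, and Gzmb in 16.7% of the BM HSC against 2.13%. Cma1 was present in 16.7% of the BM HSC and Mcpt4 in 9.76% of the WT-MPP. Across CD11b+CD48+SK cells (n = 47, one sort and amplification), Spearman's rho of Il3ra was 0.12 with Mpo, 0.07 with Ctsg and 0.15 with Cpa3. Ctsg was at 0 in all FL HSC and WT-MPP. The part of such cell types in the values of Il3ra, Csf3r and Il1rl1 was not tested. The erythroid, megakaryocyte, B cell, T and innate lymphoid, and dendritic lists had 1, 2, 1, 1 and 1 markers in at least 20% of CD11b+CD48+SK cells, against 1, 2, 1, 1 and 1 in the WT-MPP, 1, 4, 1, 2 and 1 in the BM HSC and 1, 3, 1, 3 and 1 in the FL HSC.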

How the data were processed

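Single cells were sorted, their cDNA was amplified with a whole-transcriptome kit, and libraries were sequenced. The submitters' processing notes name bcl2fastq, HISAT2 (version 2.1.0), SAMtools (version 0.1.19), StringTie (version 1.3.4) and the build mm10. The deposited values are TPM, which the authors estimated per gene and cell and which sum to the same total in every cell. TPM keeps no counts, so amplification noise and depth cannot be separated from level. The annotation and the strand setting are not given in the sources used here.

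The table holds 181 columns of cells, and 1 column without a sample of its own was not used. Values were averaged as log2(TPM+1), with a pseudocount of 1, in Python 3.11.15 (numpy 2.4.6, pandas 2.3.3, scipy 1.17.1, matplotlib 3.10.9). The comparison covered 10856 genes, those that reached a TPM of 1 in 10% of the cells of some population. No cell was left out, and no doublet caller was run on these singly sorted cells. The calculation was tested on simulated data. A share at 0 is given with the share that 3 cells would make.

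The members, the lists of partner chains, other receptors, ligands, JAK and STAT genes, feedback genes, regulators and cell type markers, and the markers' use were chosen with earlier results of these data known. The genes named are the members, genes of these lists and, for each member in 20% of the cells of a population, the 3 genes of highest Spearman's rho. A gene of the list of other receptors is counted there but not reported here. Motifs were sought in the codons of the GENCODE vM21 transcripts, since no protein table was used here. Alternatives covered the pseudocount, the averaging, the scaling of cells, the range of genes per cell, the filter, the TPM for presence, the summing of Csf2rb and Csf2rb2, and Pearson's r.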

Additional observations from a re-analysis of the deposited data

How the results depend on the processing

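Median-ratio scaling left Il3ra past the fold between the CD11b+CD48+SK cells and the WT-MPP, as did each other setting tried, at 1.01 to 4.39. The number of members past the fold moved by more than 1.5 times in some settings. With log2 of the mean TPM it was 3 against the WT-MPP, 5 against the BM HSC and 4 against the FL HSC in CD11b+CD48+SK cells, and 5 between the WT-MPP and the BM HSC. With a pseudocount of 10 it was 1 between CD11b+CD48+SK cells and the FL HSC, 1 between the FL HSC and the BM HSC and 1 between the WT-MPP and the BM HSC, where a pseudocount of 0.1 gave 4. With median-ratio scaling it was 2 against the WT-MPP and 1 against the FL HSC, and in cells of the common range of genes 3 against the WT-MPP. Ifngr1 turned from 1.304 to -0.051 between the FL HSC and the BM HSC with log2 of the mean TPM. That averaging also gave 3 JAK and STAT genes and 6 feedback genes past the fold against the WT-MPP, and 6 JAK and STAT genes against the BM HSC. Of all genes compared, it gave 10.3% higher and 24.1% lower against the WT-MPP, and 9.78% and 27.7% against the BM HSC. Counting every TPM above 0 put 6 members in 20% of the BM HSC in place of 3. In the cells of the common range, none of WT-MPP with Csf2ra held a beta chain (0%), nor did the 1 BM HSC (0%) and 6 FL HSC (0%) with Il3ra. The cause of these moves was not tested. The other 84 values of this kind moved by less than 1.5 times, within the spread over cells, within the main interval or, for correlations, without a change of sign. Such counts could still lose a member: with a pseudocount of 10, Il3ra lay at 0.86 between the CD11b+CD48+SK cells and the BM HSC, where the count went from 3 to 2. With that pseudocount Csf3r at 0.85, Ifngr1 at 0.72 and Il3ra at 0.54 were the members lost between the FL HSC and the BM HSC, and Csf3r at 0.78 between the WT-MPP and the BM HSC. Il2rg lay at 0.82 between the FL HSC and the BM HSC with log2 of the mean TPM, and Ifngr1 there at 0.54 with median-ratio scaling and 0.34 in cells of the common range. The depth per cell is unknown, and rare members rest on 1 to 15 cells. No paired analysis was possible because the results come from no test and the cell numbers only name cells.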

Other observations

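Further cytokine receptors outside the set were found in the CD11b+CD48+SK cells or were spread over all populations. Il17ra, the IL-17 receptor, was present in 83.0% of CD11b+CD48+SK cells, 61.0% of the WT-MPP, 50% of the BM HSC and 60.7% of the FL HSC. Crlf2, the receptor chain for thymic stromal lymphopoietin, was present in 78.0% to 87.2% of cells of each population. Il10ra, the ligand-binding IL-10 chain, was present in 14.9% of CD11b+CD48+SK cells, 2.44% of the WT-MPP, 7.14% of the FL HSC and 0 of 36 BM HSC, which allows a share of up to 8.33%. Tgfbr2, a receptor for transforming growth factor beta, was present in 46.4% of the FL HSC and in 17.1% to 19.4% of cells of the other populations. Lymphoid priming genes stood beside the receptors in the CD11b+CD48+SK cells, where Dntt, the terminal transferase of lymphoid precursors, was present in 93.6% of cells against 14.6% of the WT-MPP, and Satb1 in 72.3% against 14.6%. Rag1 was at 0 in all 47 cells, whereas Rag2 was present in 5 of the 47 (10.6%, 3.55 to 23.1%). Rag2 was found in none of 41 WT-MPP (up to 7.32%), 36 BM HSC (up to 8.33%) and 56 FL HSC (up to 5.36%).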
